A study of Mus musculus with 2 samples.

Results

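The genes described here were listed under peroxisome biogenesis, membrane and other enzymes, apart from the core of the beta-oxidation pathway. Most encode peroxins, proteins of the peroxisomal membrane or enzymes of the matrix. Members were taken by gene symbol from a list of 40 genes, and every probe set whose platform annotation names 1 of them was used. This gave 78 of the 45037 non-control probe sets of the array, for 39 genes out of 18193 named on it. No probe set was named Paox (polyamine oxidase), so this gene has no value here.

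The samples were livers of male 129SvEJ mice aged 8 weeks, either wild type or without the receptor gene Ppara (Ppara-null, pparalpha-/- in the labels). Both genotypes ate chow with 0.2% fenofibrate, a fibrate drug whose acid form is a ligand of the receptor PPARα, for 7 days. RNA of 3 mice was pooled per genotype and put on 1 Affymetrix array, so there are 2 arrays, 1 per group, and no replicates. Mice without fenofibrate were not analysed here, and each difference below joins genotype with response to the drug.

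Peroxisomes are organelles bounded by a single membrane that shorten very long and branched fatty acids, start the synthesis of ether lipids and oxidise hydroxy acids, amino acids and urate. Peroxins insert the membrane proteins, import folded matrix enzymes that carry a targeting signal, and shape and divide the organelle. In rodent liver, fibrates acting through PPARα enlarge the peroxisomal compartment, which gave this receptor its name.

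Each value is a signal intensity on a linear scale, scaled by the authors to a common target on both arrays. A floor was set at the median signal of the non-control probe sets, 287.8 for wild type and 269.4 for null, and dimmer signals were set to that floor. Log2 ratios are wild type over null throughout. A gene is represented by its brightest probe set and counts as measured when it reaches the floor on at least 1 array. A gene that reaches it on only 1 array has a bound, written "at least". With 1 array per genotype there is no test and no p-value, and a gene is called at 2-fold or more. Different probe sets of the same gene scattered around their gene mean by 0.42 (pooled SD of the log2 ratio, 3917 genes), and those of 15 members by 0.42 as well (37 probe sets). That scatter holds nothing of the differences between mice.

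The floor was reached by 37 of the 39 genes, and by 33 of these on both arrays. Among those 33, 6 were called higher in wild type (18.2%, against 3.61% of 10060 genes measured on both arrays) and 0 lower (against 2.24%). These 6 were Pex11a, Lonp2, Abcd3, Crot, Ephx2 and Pxmp4, and their folds lay between 2.28 and 3.46. Abcd2 and Hao2 reached the floor in wild type only, which fixes their direction, and their bounds bring the count to 8 of 37 higher and 0 lower (against 4.99% and 2.80% of 13041 measured genes). Abcd4 and Far1 reached the floor in null only, and Pex10 (110.6 in wild type against 258.8 in null) and Dao (94.1 against 243.7) on neither array.

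The median log2 ratio of the 33 members was 0.31, against -0.02 over all 10060 genes, with quartiles of -0.27 and 0.79 against -0.30 and 0.28. The lower quartile of the members thus lay close to that of all genes, while the upper quartile lay higher. Of the 33, 20 had a positive ratio (60.6%, against 47.8% of all). At 1.5-fold, 11 of the 37 measured members were called higher (against 14.8% of all measured genes) and 2 lower (against 11.0%). The 11 include Abcd2 and Hao2, and the 2 lower are Pipox and Abcd4. Abcd2, Hao2 and Abcd4 each reached the floor on 1 array only, which fixes their direction. At 3-fold, 3 were called higher (against 1.01%) and 0 lower (against 0.445%). Of these 3, Abcd2 and Hao2 are bounds, and Pex11a alone was above the floor on both arrays. The value just inside the 2-fold limit was that of Pxmp4 (2.28-fold) and just outside that of Pex19 (1.95-fold).

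**Figure D1:**
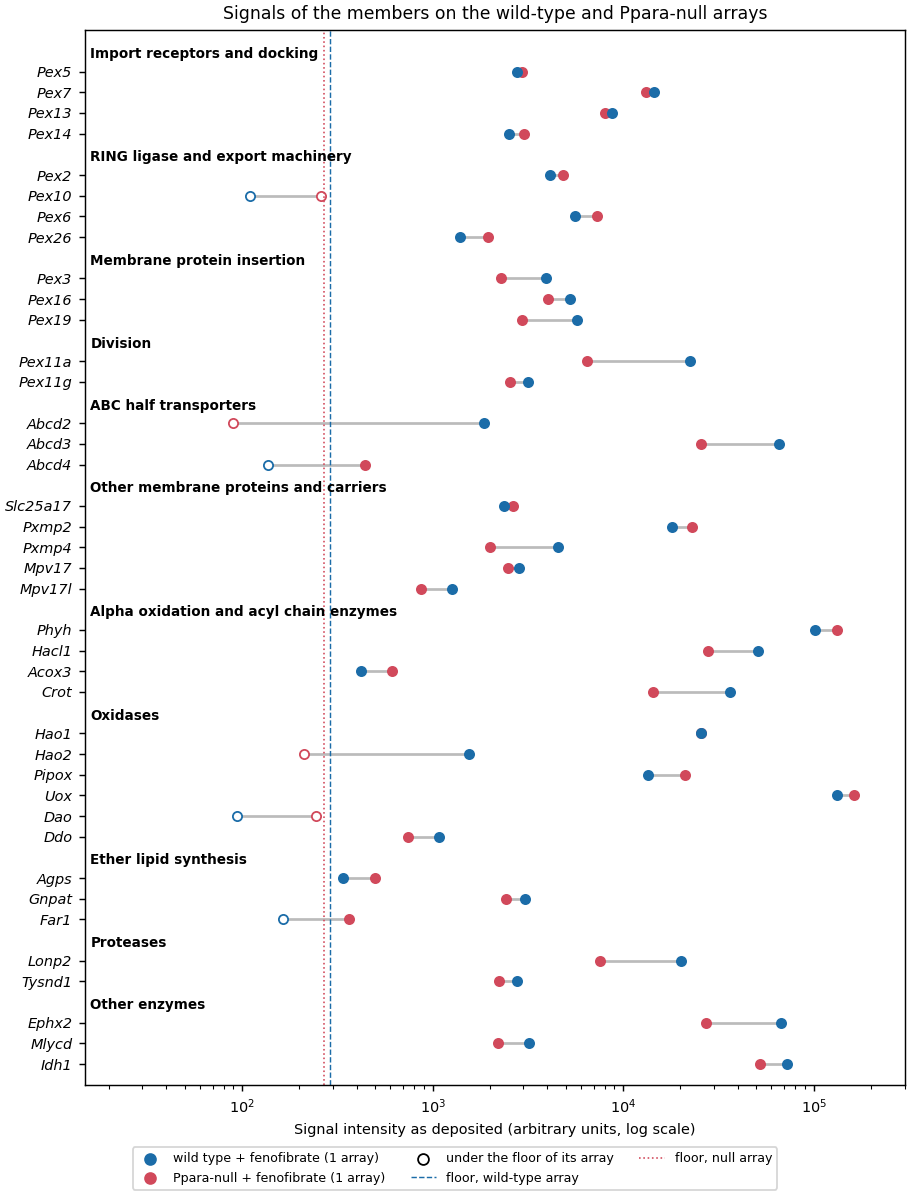
Signal of the brightest probe set of each member on the wild-type (blue) and Ppara-null (red) array, on a log axis, by role; open circles lie under the floor of their array, drawn as a vertical line (287.8 and 269.4). Abcd2 and Hao2 span the floor with the higher signal in wild type, and Abcd4 and Far1 span it with the higher signal in null; levels of different genes are not comparable.

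The promoters of a pair of paralogous peroxins, of Hao2 and of Ddo are shown as examples, to be read beside the site that PPARα recognises. They do not represent the members with high or with even ratios. The receptor binds as a dimer with RXR to a direct repeat of the hexamer AGGTCA, with 1 base between the copies. RefSeq promoters (GRCm38.p6) were matched for 33 members, all but Pex2, Pex19, Pxmp2, Abcd2, Abcd4, Mpv17l and Ephx2, as 43 windows from 250 bases before to 50 after a start. The 250 bases before the start are printed on the strand of the gene, 5′ to 3′, with the hexamer in capitals where it occurs on either strand. The windows are chr7:79743132-79743381 (minus strand) for Pex11a, chr8:3467649-3467898 (minus strand) for Pex11g, chr3:98893231-98893480 (minus strand) for Hao2 and chr10:40629761-40630010 (plus strand) for Ddo.
Pex11a: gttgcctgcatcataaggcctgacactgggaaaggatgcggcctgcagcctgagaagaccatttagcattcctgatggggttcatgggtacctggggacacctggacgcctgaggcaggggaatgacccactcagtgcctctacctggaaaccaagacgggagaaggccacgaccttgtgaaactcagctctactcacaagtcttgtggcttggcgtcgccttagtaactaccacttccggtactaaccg
Pex11g: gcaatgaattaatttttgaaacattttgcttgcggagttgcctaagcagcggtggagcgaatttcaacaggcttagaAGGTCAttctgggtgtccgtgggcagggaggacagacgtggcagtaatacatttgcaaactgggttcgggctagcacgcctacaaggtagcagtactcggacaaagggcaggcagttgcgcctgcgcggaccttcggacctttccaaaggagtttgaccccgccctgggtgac
Hao2: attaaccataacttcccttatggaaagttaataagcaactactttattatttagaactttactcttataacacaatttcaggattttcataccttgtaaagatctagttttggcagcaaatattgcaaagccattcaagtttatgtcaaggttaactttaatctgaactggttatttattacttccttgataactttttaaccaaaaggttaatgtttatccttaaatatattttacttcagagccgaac
Ddo: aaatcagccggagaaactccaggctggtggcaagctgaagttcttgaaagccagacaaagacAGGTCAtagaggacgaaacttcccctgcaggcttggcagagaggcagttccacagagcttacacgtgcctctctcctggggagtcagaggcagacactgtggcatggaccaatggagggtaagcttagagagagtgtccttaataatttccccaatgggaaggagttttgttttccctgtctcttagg

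The hexamer AGGTCA was found on either strand in 4 of the 43 member windows (9.30%), those of Pex11g, Ddo, Phyh and 1 of 3 windows of Dao, against 16.3% of all 32851 promoter windows. All 4 are among the 35 windows of members not called higher (11.4% of these), so most of those windows lack the hexamer too. The windows of Pex11g and Ddo are printed above, so the printed windows hold the hexamer more often than the member windows at large. The window of Hao1, of the same family as Hao2, held none. In Pex11g the hexamer began 173 bases before the start and in Ddo 188 bases before it, and a second copy in Ddo lay downstream of the start. A looser direct repeat, AGGNCANAGGNCA on either strand, was found in 0 of 43 member windows and in 0.381% of all windows. Its copies are the hexamer itself where their N is T. The 8 windows of the 6 higher members with a promoter (Abcd3, Crot, Hao2, Lonp2, Pex11a and Pxmp4) held neither. This says only that these letters are not in these windows.

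Among the peroxins, the largest difference was that of Pex11a, which bends and elongates the peroxisomal membrane ahead of division. Its brightest probe set gave 22457 in wild type and 6488 in null (3.46-fold), and its second gave 18399 and 3209 (5.73-fold). Both probe sets were far above the floor on both arrays and passed 2-fold. Its paralogue Pex11g gave 3173 and 2535 (log2 ratio 0.32). The other probe sets of Pex11g had log2 ratios of 0.80 and -0.10, so they did not share a direction.

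The remaining 11 measured peroxins all lay under 2-fold, with a median log2 ratio of 0.13 and 5 of 11 negative. After Pex11a, the largest positive log2 ratios among the peroxins were those of the 3 that insert proteins into the peroxisomal membrane. Pex19, the cytosolic chaperone and receptor for membrane proteins, gave 5745 in wild type and 2941 in null. Its log2 ratio was 0.97, and its other probe sets gave 0.55 and 0.68, so all 3 were positive. It passed 2-fold after quantile normalization (1.01), after a loess correction (1.04) and scaling to the hybridization controls (1.35). Pex3, the membrane anchor on which Pex19 docks, gave 3930 and 2277 (log2 ratio 0.79), and 0.20 at its second probe set. Pex16, which brings Pex3 to the membrane, gave 5253 and 4029 (0.38), while a dim probe set gave 331.1 and 454.6 (-0.46).

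The import machinery gave ratios near 1. Pex5, the receptor for the C-terminal targeting signal, gave 2760 in wild type and 2950 in null, and a second probe set had a log2 ratio of 0.42. Pex7, the receptor for the N-terminal signal, gave 14552 and 13246 (log2 ratio 0.14), and the docking protein Pex13 8767 and 8000 (0.13). Pex14, its docking partner, gave 2509 and 3028 (-0.27). The 4 genes had a median log2 ratio of 0.02 and an SD of 0.20, less than the scatter between probe sets.

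The genes that recycle the import receptor had negative ratios at their brightest probe sets. Pex2, a RING subunit of the ubiquitin ligase, gave 4141 in wild type and 4825 in null, and the AAA ATPase Pex6 5587 and 7292. Pex26, the membrane anchor of that ATPase complex, gave 1400 and 1949. Their log2 ratios were -0.22, -0.38 and -0.48. The directions of Pex2 and Pex6 depended on the probe set, and that of Pex2 also on the scaling. Pex26 has 1 probe set and was negative in every scaling run (-0.10 after scaling to the hybridization controls). The second probe set of Pex2 had a log2 ratio of 0.88, the 5 probe sets of Pex6 ran from -0.45 to 0.50, and Pex2 became positive (0.16) after scaling to the hybridization controls.

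**Figure D2:**
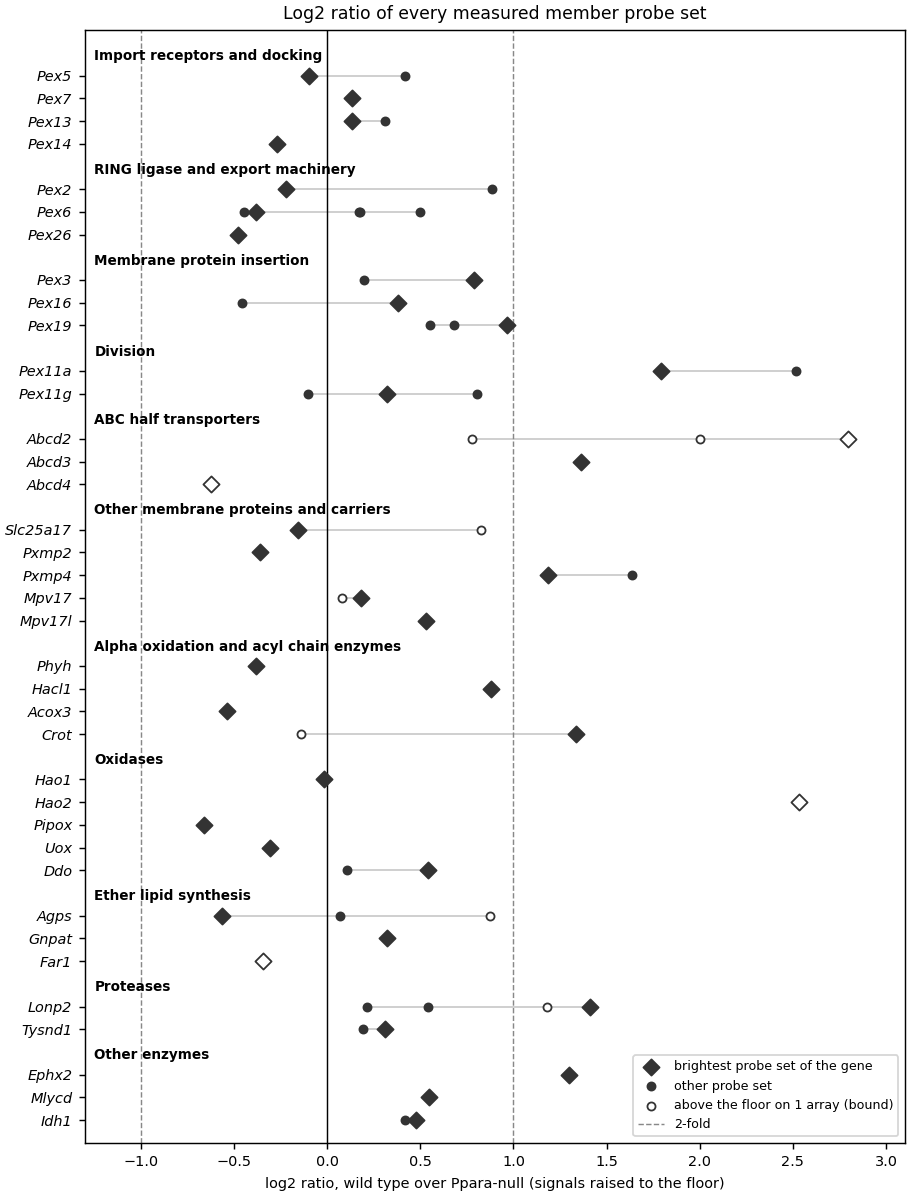
Log2 ratio of wild type over null for all 66 measured member probe sets, by gene and role; diamonds mark the brightest probe set of a gene, open symbols a bound, and dashed lines 2-fold. Both probe sets of Pex11a and of Pxmp4 lie past 2-fold, while those of Pex2, Pex6, Pex16 and Crot lie on both sides of 0. The open symbol of Mpv17 lies right of 0 only because the wild-type floor is the higher one; that probe set reached the floor in null alone.

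Peroxisomal ABC transporters carry acyl-CoA esters into the organelle, and both members that do so, Abcd2 and Abcd3, were called higher. Abcd2, which transports very long chain and polyunsaturated acyl-CoAs, had a signal of 1872 in wild type against 89.8 in null at its brightest probe set, which is at least 6.95-fold. The next probe sets gave 1081 against 28.0 and 462.0 against 20.5. On the null array all 3 lay under the floor, and the remaining probe set lay under it on both arrays (33.3 and 28.4). With the floor at the 75th percentile the bound was 1.19 on the log2 scale, still past 2-fold. Without a floor the plain log2 ratio was 4.38, which rests on a null signal under the brightest Bacillus control and is no bound. Abcd3, an abundant peroxisomal membrane protein and a carrier of long chain, branched and dicarboxylic acyl-CoAs, gave 65801 and 25627 (2.57-fold). A dim Abcd3 probe set gave 133.9 and 65.1, under the floor on both arrays. Abcd4, which exports cobalamin from lysosomes despite its family name, gave 136.4 in wild type and 443.0 in null, at least 1.54-fold lower in wild type. Its null signal was just above the brightest Bacillus control probe set on that array (422.4), which targets a bacterial transcript.

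Of the other membrane proteins, Pxmp4, an integral protein of the peroxisomal membrane, gave 4569 in wild type and 2005 in null (2.28-fold). Its second probe set gave 4207 and 1351 (3.11-fold), so both passed 2-fold. Pxmp2, a channel of the same membrane, gave 17981 and 23114 (log2 ratio -0.36). That sign turned after scaling to the hybridization controls (0.02). Slc25a17, the peroxisomal carrier of coenzyme A and other nucleotide cofactors, gave 2364 and 2633 (-0.16), and a dimmer probe set gave 477.9 and 204.8. The related Mpv17l and Mpv17 had log2 ratios of 0.53 (1260 and 871.9) and 0.18 (2830 and 2498). A dim probe set of Mpv17 gave 143.5 and 272.3, above the floor in null only.

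Among the enzymes of unusual acyl chains, Crot, the carnitine octanoyltransferase that hands shortened chains on to mitochondria, gave 36394 in wild type and 14417 in null (2.52-fold). Its second probe set gave 38.6 and 317.1, a signal under the brightest Bacillus control in null, and the median over both probe sets (log2 ratio 0.60) lay under 2-fold. The enzymes of alpha oxidation, which removes 1 carbon from branched fatty acids such as phytanic acid, differed from each other. Phyh, which hydroxylates phytanoyl-CoA, gave 101927 and 133004 (-0.38). Hacl1, the lyase of the following step, gave 51030 and 27734 (0.88). Each of these 2 genes has 1 probe set, and the difference of their log2 ratios was not tested. Acox3, a branched chain acyl-CoA oxidase, was dim, with 419.7 and 610.0 (-0.54).

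The flavin and other oxidases held a pair of related enzymes with different ratios. Hao2, which oxidises long chain 2-hydroxy acids, had a signal of 1558 in wild type against 210.6 in null, at least 5.78-fold higher. Its only probe set lay under the floor in null, and the bound fell below 2-fold with the floor at the 75th percentile (log2 ratio 0.93). Hao1, the glycolate oxidase of the same family, gave 25473 and 25731, with a log2 ratio of -0.01. Pipox, which oxidises pipecolate and sarcosine, had the lowest ratio of the members above the floor on both arrays (13438 and 21238, log2 ratio -0.66), and it was negative in every scaling run (-0.28 after scaling to the hybridization controls). Uox, the urate oxidase of the crystalline core, gave 132428 and 163534 (-0.30), which turned to 0.07 under that scaling. Ddo, the D-aspartate oxidase, gave 1079 and 742.6 (0.54), and 0.11 at a second probe set. D-amino acid oxidase (Dao) was among the genes under the floor on both arrays.

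Ether lipid synthesis held 0 called genes among 3 measured. Gnpat, which acylates dihydroxyacetone phosphate, gave 3037 in wild type and 2429 in null (log2 ratio 0.32). Agps, which exchanges that acyl group for an alkyl group, was dim at all 3 probe sets, with 338.1 and 500.1, 402.1 and 382.9, and 494.0 and 76.6. These pointed both ways. Far1, which makes the fatty alcohol, reached the floor in 1 of 5 probe sets and in null only (164.3 and 365.5). That null signal lay under the brightest Bacillus control on the array (422.4).

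Both peroxisomal matrix proteases had positive ratios. Lonp2, the peroxisomal Lon protease, gave 20016 in wild type and 7530 in null (2.66-fold). Its other 3 probe sets had log2 ratios of 0.54, 0.21 and at least 1.18, and the median over the 4 was 0.86, under 2-fold. Tysnd1, which trims imported enzymes, gave 2776 and 2240, and its 3 probe sets lay between 0.19 and 0.31.

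Of the remaining enzymes, Ephx2, the soluble epoxide hydrolase of the cytosol and peroxisome, gave 67224 in wild type and 27377 in null (2.46-fold) at its single probe set. Mlycd, which decarboxylates malonyl-CoA, gave 3219 and 2202 (log2 ratio 0.55). Idh1, the NADP-dependent isocitrate dehydrogenase, gave 72375 and 51985 (0.48), and 0.42 at its second probe set. All 3 were positive in each scaling run.

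Agreement between the probe sets of a member was uneven. Of the 66 measured member probe sets, 12 were at least 2-fold higher (against 4.65% of measured probe sets) and 0 lower (against 3.15%). Of the 12, 4 reached the floor in wild type only. Both arrays passed the floor at 55 member probe sets, of which 8 were higher (against 3.30% of all such probe sets) and 0 lower (against 2.46%). These counts include several probe sets of the same gene, which are not independent. Of 19 members with several measured probe sets, 10 had 1 sign throughout and 9 had both, namely Agps, Crot, Mpv17, Pex2, Pex5, Pex6, Pex11g, Pex16 and Slc25a17. A probe set above the floor on only 1 array took its sign from that array. Of the 5 higher members among the 19, Pex11a and Pxmp4 passed 2-fold at all measured probe sets, and Crot and Lonp2 had at least 1 under it. The third measured probe set of Abcd2 has only a bound, at least 1.71-fold.

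Other genes of the organelle, including beta-oxidation enzymes and thioesterases, served as a comparison. All 30 of them with a named probe set were measured on both arrays, with a median log2 ratio of 0.65. Of these, 13 were called higher (43.3%, against 3.61% of all genes measured on both arrays) and 0 lower (against 2.24%). The 13 were Ech1, Acot3, Ehhadh, Decr2, Acot8, Eci2, Dhrs4, Acaa1b, Acot4, Hsd17b4, Acaa1a, Acot6 and Nudt12. Their folds ran from 2.05 (Nudt12) to 7.98 (Ech1). Of the 30, 21 had a positive log2 ratio (70.0%, against 47.8% of all genes) and 9 a negative one. The lowest, named after their values were seen, were Agxt (-0.70), the aminotransferase that takes up glyoxylate, and catalase (Cat, -0.37), which breaks down hydrogen peroxide. Both lay under 2-fold, and scaling to the hybridization controls moved Cat to 0.01 and Agxt to -0.33. With 1 array per genotype, the difference between 13 of 30 and 6 of 33 was not tested.

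**Figure D3:**
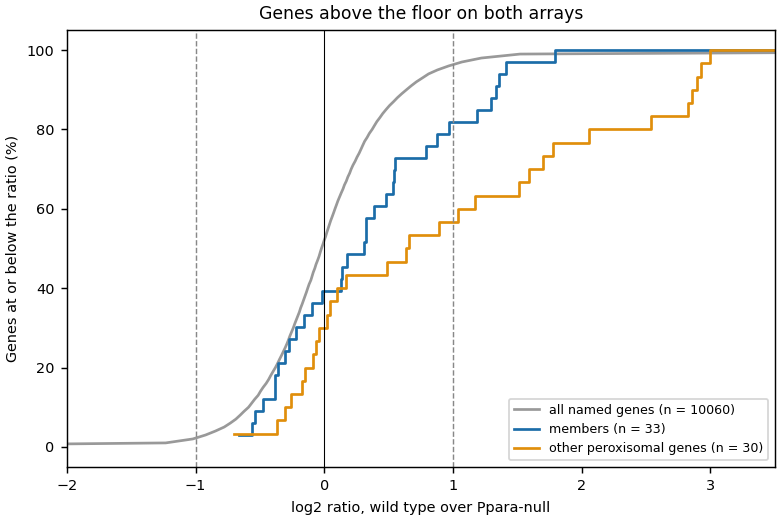
Cumulative percent of genes by log2 ratio of wild type over null, for the 33 members, the 30 other peroxisomal genes and all 10060 named genes above the floor on both arrays; dashed lines mark 2-fold. Of the members 60.6% lie right of 0, against 47.8% of all genes. The lowest member lies at -0.66. Past 2-fold higher lie 6 members, 13 of the other peroxisomal genes and 3.61% of all genes.

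The targeted gene gave a lower signal in null at its 3 probe sets, 36.0% to 50.6% of wild type (7957 against 3414, 5833 against 2953 and 4312 against 1551), and whether any of them lies in the disrupted part is not given in the sources used here. All 7 measured hepatocyte markers had negative log2 ratios (-0.63 to -0.14), with a summed signal of 801258 in wild type and 957487 in null, opposite to the higher members; their median was -0.31, or 0.07 when scaled to the hybridization controls. All 5 measured Kupffer cell and macrophage markers were negative too (summed signal of the 6 markers 14483 and 21388; median -0.63, or -0.25 under that scaling), while Marco lay under the floor on both arrays. The 3 adipocyte markers with a probe set, Adipoq, Lep and Retn, lay under the floor on both arrays. Measured endothelial (5), stellate (4), cholangiocyte (3) and lymphocyte (2) markers pointed both ways, with medians between -0.24 and 0.17. Chosen after their values were seen, Ptprc was 2.26-fold higher in wild type and the macrophage marker Cd5l 2.12-fold lower. Pecam1, chosen likewise, was higher by at least 2.36-fold, with a null signal of 228.0 under the floor. The other measured lymphocyte marker, Cd8a, was 1.80-fold lower in wild type. Of the other endothelial markers, Lyve1 had a log2 ratio of 0.28, Clec4g -0.09, Stab2 -0.39 and Kdr -0.55. The part of these markers in the ratios of the members was not tested. In a whole liver, fewer cells of a type and less RNA per cell cannot be told apart. The 18 hybridization control probe sets were all lower on the wild-type array (median log2 ratio -0.38), so scaling to them raises every ratio by that amount, and the median of all measured genes became 0.38.

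Under that scaling 11 of the 37 members (29.7%) were called higher, against 13.5% of all measured genes, with Pex19, Pex3 and Hacl1 added to the 8, and the median of the members was 0.69. Of the 13 members with a negative ratio and a signal above the floor on both arrays, 7 turned positive (Hao1, Pex2, Pex5, Pex14, Pxmp2, Slc25a17 and Uox). The other 6 were still negative, namely Pipox, Agps, Acox3, Pex26, Pex6 and Phyh, the last pair at -0.0050 and -0.0047. Abcd4 and Far1 have only bounds, and Far1 has no settled sign under that scaling. After the loess correction, Hao1 alone of the 37 changed sign (0.05). The 8 called members were positive in each of the 10 alternatives of scaling, floor and probe set choice in which they were measured. Much of this was fixed in advance. Median centring moved each ratio by only 0.04, and scaling to the hybridization controls raised every ratio. Other floors left the called members measured on both arrays unchanged. Abcd2 and Hao2 reached the reported floor in wild type only, which fixes their sign.

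**Figure D4:**
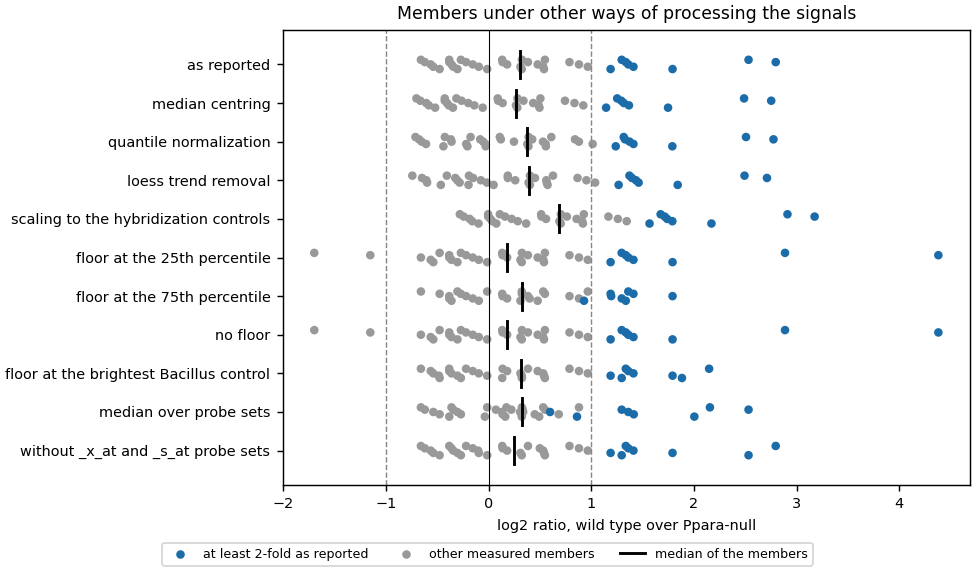
Log2 ratio of the measured members (points) and their median (bar) as reported and under 10 other ways of processing; blue points are the 8 members called higher as reported, and dashed lines mark 2-fold. The points are members measured with the reported floor, and lower floors add Pex10 and Dao to the median only. Scaling to the hybridization controls moves all points to the right, and the blue points below 2-fold are Hao2 at the 75th percentile floor and Crot and Lonp2 with the median over probe sets.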

How the data were processed

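Liver RNA pools of 3 mice per genotype were measured on 1 array each. Per the labels, the authors summarised each probe set to 1 signal intensity with the Affymetrix statistical algorithm and scaled each array to a target of 1000; the deposited intensities had a mean of 1000.01 on both arrays after the lowest and highest 2% were left out. The software version is not given in the sources used here. Symbols were taken from the 2016 platform annotation; 932 probe sets with more than 1 symbol and 9160 without a symbol were not used for genes. All 39 member gene IDs were found in RefSeq, with 0 symbols changed.

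Ratios, floors and 2-fold calls were computed as described with the results, in Python 3.11.15 with pandas 2.3.3 and statsmodels 0.14.6 (lowess, span 0.4). The code was also run on simulated arrays with changes planted in genes well above the floor and an assumed noise level. That run checks the code only, and says nothing on the calls or bounds of the members. No test was possible with 1 array per group, and the number of arrays limits the precision. Members, role groups and comparison lists were chosen with earlier results of these data known. The naming rule covered called members, the extremes of each role group and members with probe sets of both signs; signals of other members were added. A planned look at protein targeting signals was not run. Alternatives were 4 scalings, 4 floors, 2 ways of choosing probe sets and thresholds of 1.5-fold and 3-fold.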

Additional observations from a re-analysis of the deposited data

How the results depend on the processing

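The count of 8 higher members stayed within 1.5 times under all alternatives of scaling, floor and probe set choice (6 to 11) and was 3 at the 3-fold threshold. The share of all genes called higher moved more, from 2.12% (floor at the 75th percentile) to 17.0% with no floor, where 8 of 39 members (20.5%) were called. The count of 0 lower members became 2 at 1.5-fold (Abcd4 and Pipox), and 4 with the floor at the 25th percentile and 4 with no floor (10.3% of 39, beside 9.87% and 12.0% of all genes). Those 4 were Abcd4, Dao, Far1 and Pex10, whose wild-type signals lie under the reported floor. The median log2 ratio of the members ran from 0.18 (no floor) to 0.69 (scaling to the hybridization controls), beside a median of all genes of 0.03 and 0.38. Of the other peroxisomal genes, 10 were higher at 3-fold, where 1.01% of all measured genes were. The most, 16, were higher at 1.5-fold (14.8% of all) and under scaling to the hybridization controls (13.5% of all). Of 364 member values under alternatives, 19 moved by more than the scatter between probe sets, over 11 members, and 0 called values turned sign. Many of these values could not move that far. Other floors leave genes above them unchanged, and median centring moves each ratio by 0.04. Scaling to the hybridization controls moves every ratio by 0.38, under the scatter of 0.42, so it adds nothing to the 19. Even so, 7 members above the floor on both arrays turned sign under it. The floor at the brightest Bacillus controls lowered the log2 bounds of Abcd2 and Hao2 to 2.15 and 1.88. No paired analysis was possible because each group has 1 array, and leaving out an array would leave no comparison.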
